A study of Mus musculus with 31 samples.

Results

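4930402F06Rik, 9330198N18Rik and Ptgdr2 are 3 genes whose transcript ratios fell on 2 levels across a panel of inbred mouse strains, apart from the first principal component, the direction along which the probes varied most. They were picked for exactly that property in these measurements: the values of 9330198N18Rik lay on 2 levels as deposited, 4930402F06Rik did so with and without the first principal component, and Ptgdr2 did so after that component was removed. The division of the strains is therefore given as a description with no test. Each gene had 1 probe, so the account rests on 3 of 23040 probes and on 3 of 15096 gene names.

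The panel consisted of 31 BXD strains, recombinant inbred lines whose founders are C57BL/6J and DBA/2J. RNA of 3 male mice aged 8 weeks was mixed per strain, marked in red and put on 1 spotted array per strain, 24 arrays from strains numbered BXD1 to BXD32 and 7 from BXD33 to BXD42. The other channel of every array held RNA of male C57BL/6J mice of the same age, a common reference in green to which spike-in transcripts had been added, and no dye was swapped. The titles named kidney while the source and tissue fields named whole brain. The direction and base of the logarithm were not stated, so a log2 ratio of strain over C57BL/6J is the likely reading of every value given here, and below 0 then means less RNA than in C57BL/6J.

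A recombinant inbred strain carries, at each locus, the allele of one or the other founder, so a transcript governed by a nearby variant tends to fall on one level or another across strains and to differ from strain to strain in the same way as its neighbours on the chromosome are inherited. Ptgdr2 encodes DP2, also called CRTH2, a receptor for prostaglandin D2 that is best known from type 2 helper T cells, innate type 2 lymphocytes, eosinophils and basophils. 9330198N18Rik is annotated by RefSeq as a long non-coding RNA and 4930402F06Rik as protein-coding, and both are still known by clone names. In bulk RNA such as this, fewer cells of a type and less RNA per cell cannot be told apart.

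All 3 genes were matched in the RefSeq promoter table of GRCm38.p6, and their start windows are shown because they place each gene and because no other sequence of these genes was used. Each window runs from 250 bases before to 50 bases after the gene start, 5′ to 3′ on the strand of the gene. The first is chr2:35397125-35397424 on the minus strand, the second chr2:30629309-30629608 on the plus strand and the third chr19:10936910-10937209 on the plus strand. Capitals mark a tandem repeat.
4930402F06Rik: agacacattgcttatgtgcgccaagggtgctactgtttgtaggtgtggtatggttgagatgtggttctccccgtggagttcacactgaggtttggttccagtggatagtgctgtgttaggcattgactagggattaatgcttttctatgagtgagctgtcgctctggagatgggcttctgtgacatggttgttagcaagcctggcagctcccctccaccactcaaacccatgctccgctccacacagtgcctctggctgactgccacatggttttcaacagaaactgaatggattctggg
9330198N18Rik: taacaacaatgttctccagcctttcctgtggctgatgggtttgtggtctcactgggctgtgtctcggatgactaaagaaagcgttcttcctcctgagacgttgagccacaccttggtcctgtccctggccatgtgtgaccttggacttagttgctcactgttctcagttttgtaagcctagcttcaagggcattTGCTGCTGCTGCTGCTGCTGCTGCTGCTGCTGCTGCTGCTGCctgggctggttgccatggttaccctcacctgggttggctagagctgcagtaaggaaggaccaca
Ptgdr2: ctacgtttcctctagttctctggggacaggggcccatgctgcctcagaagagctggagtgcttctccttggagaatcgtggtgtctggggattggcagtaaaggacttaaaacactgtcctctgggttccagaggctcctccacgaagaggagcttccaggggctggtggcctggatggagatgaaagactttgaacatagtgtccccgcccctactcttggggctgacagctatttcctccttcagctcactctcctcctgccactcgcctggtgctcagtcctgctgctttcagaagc
The window of 9330198N18Rik held 14 copies of TGC in a row, against at most 2 copies of any unit of 3 bases in the other two windows. A run of 6 copies of GCT, read on both strands, was present in 28 of 32851 windows in the table (0.0852%). GC content was 51%, 54% and 56% in the order printed. The sequences of the array probes were not used here, and none of these windows is a probe.

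The values of 4930402F06Rik formed 2 separate bands. The strains in the low band were BXD34 at -2.25, BXD40 at -2.14, BXD31 at -2.06, BXD16 at -2.03, BXD39 at -1.95 and BXD19 at -1.69, with a median of -2.04. The other 25 strains ran from -0.54 in BXD13 to 0.41 in BXD6 with a median of -0.0013, which is the level of C57BL/6J. No strain lay in the gap of 1.14 between BXD19 and BXD13. The best division with at least 5 strains on each side removed 91.7% of the sum of squares over strains, the largest share of all 23040 probes, and the next was Ighv6-6, an immunoglobulin variable segment, at 91.3%.

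9330198N18Rik divided other strains. Its low side held BXD13 at -2.07, BXD28 at -2.02, BXD11 at -1.71, BXD24 at -1.65, BXD29 at -1.59, BXD18 at -1.43, BXD8 at -1.37, BXD9 at -1.29, BXD21 at -0.97 and BXD32 at -0.96. The 21 others ran from -0.37 in BXD19 to 0.69 in BXD23 with a median of 0.018. The low side was thus the more spread of the pair, from near -1 to near -2, and the gap to the high side was 0.59. This division removed 86.4% of the sum of squares, the share in place 30 among all probes, or 86.6% and place 6 with the first principal component removed.

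Ptgdr2 showed no break in the deposited values. They rose in small steps from -1.03 in BXD2 to 0.87 in BXD22, and the best division, 19 strains from -1.03 to -0.076 against 12 from 0.0033 to 0.87, left a gap of 0.079 and ranked 2863. The first principal component over the 31 arrays held 20.6% of the variance. Ptgdr2 correlated with it at r = 0.69, whereas 4930402F06Rik did so at 0.0012 and 9330198N18Rik at 0.0052. These genes were not free of variation shared by many probes. The next 2 components held 11.3% and 9.34% of the variance. 4930402F06Rik correlated with them at 0.64 and -0.63, 9330198N18Rik at 0.51 and 0.52, and Ptgdr2 at 0.13 and -0.39. With the first component removed, 12 strains lay from -0.80 to -0.41 for Ptgdr2 and 19 from -0.15 to 0.39, with a gap of 0.26. The share was then 88.6%, ranked 2 among all probes ahead of Tmem183a at 87.0%. The low strains were then BXD39, BXD16, BXD40, BXD15, BXD34, BXD31, BXD38, BXD27, BXD2, BXD13, BXD29 and BXD19. Of these, 11 were among the 19 low strains of the deposited values, and BXD29 had been on the high side before. BXD1, BXD5, BXD11, BXD12, BXD14, BXD20, BXD28 and BXD33 went from the low to the high side.

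**Figure D1:**
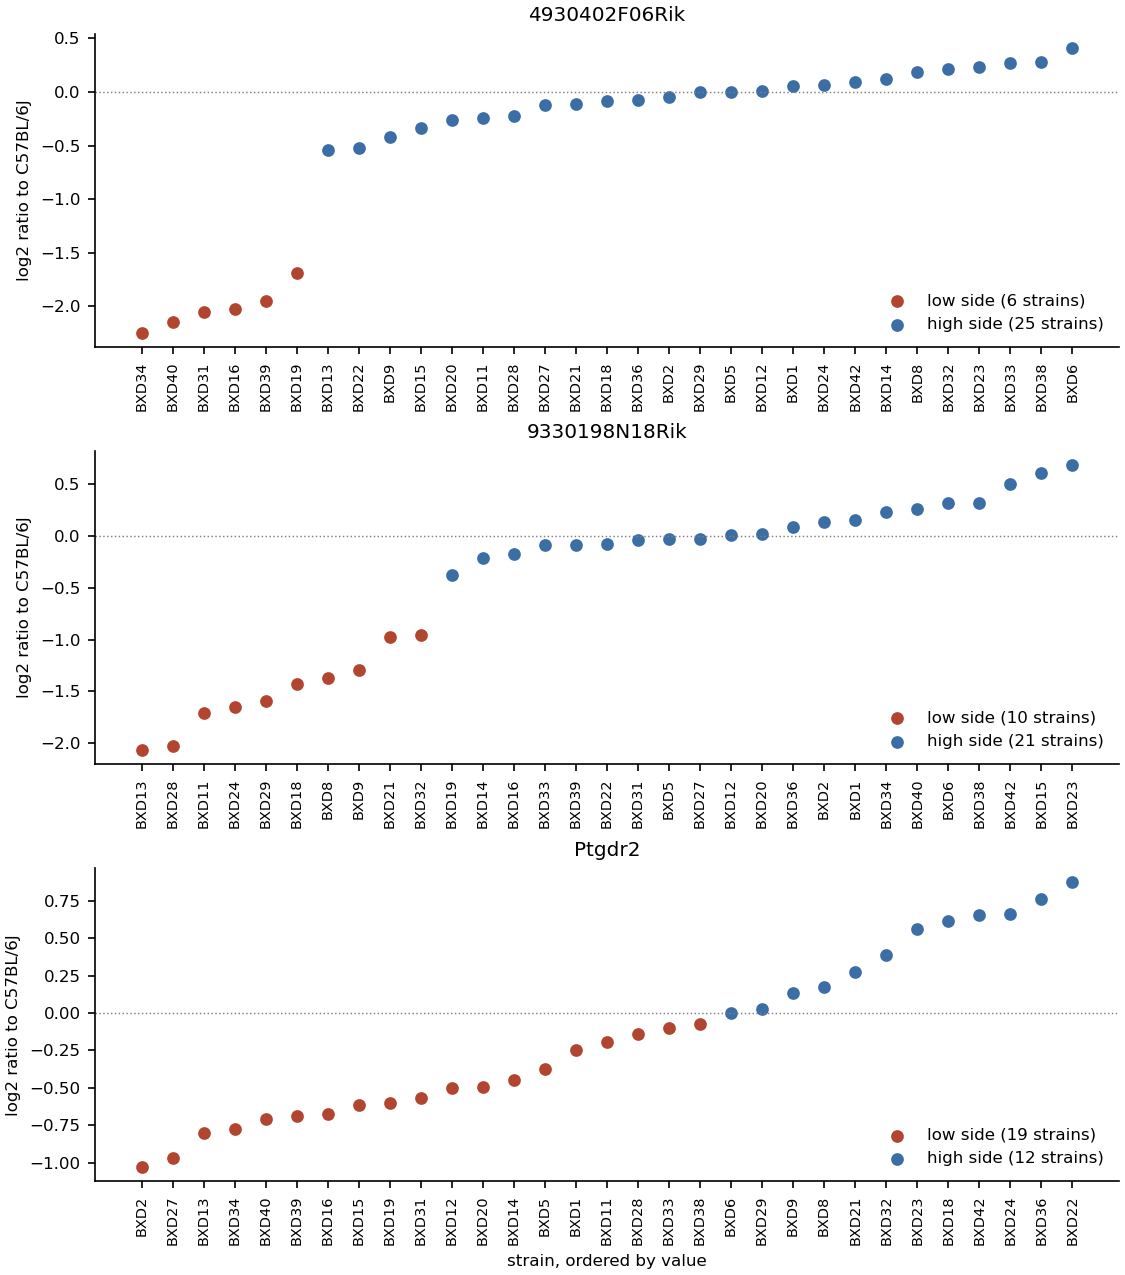
Log2 ratio to C57BL/6J (vertical axis) of each of the 31 strains, ordered by value along the horizontal axis, for the probe of each gene as deposited; each point is 1 array. 4930402F06Rik breaks by 1.14 between BXD19 and BXD13, 9330198N18Rik by 0.59 between BXD32 and BXD19, and Ptgdr2 climbs without a comparable break.

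The low strains of 4930402F06Rik and 9330198N18Rik did not overlap: none of the 6 was among the 10. All 6 low strains of 4930402F06Rik were on the low side of Ptgdr2, both as deposited, where that side held 19 strains, and with the first principal component removed, where it held 12. Across the panel 4930402F06Rik and Ptgdr2 correlated at r = 0.49, or 0.67 with the component removed. 9330198N18Rik correlated at -0.14 with 4930402F06Rik (Spearman 0.15, of the opposite sign) and at -0.18 with Ptgdr2 (Spearman -0.14), and shared 3 low strains with Ptgdr2, or 2 with the component removed. These correlations are descriptions of 31 arrays that share a reference.

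Arrays also differed as wholes, and the division of 4930402F06Rik coincided with one such difference. The 31 arrays were clustered into 6 groups on the correlations of all probes except the 3 described here. One cluster held exactly BXD16, BXD19, BXD31, BXD34, BXD39 and BXD40, the 6 low strains, under average, complete and Ward linkage alike. Pairs of these 6 arrays correlated at 0.63 to 0.81, the median being 0.72, against a median of 0.40 between them and the other 25 and of 0.31 among those 25. The labels name no batch, and the part of this likeness of arrays in the values of 4930402F06Rik was not tested.

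Other probes also set these 6 arrays apart. In 63 of 23040 probes (0.273%), 4930402F06Rik included, all 6 lay on one side of the other 25 strains, below them in 25 probes and above them in 38. The number for other sets of 6 arrays was not computed. 4930402F06Rik had the widest gap of the 63. Tmem183a followed with a gap of 0.78 and the 6 strains above the others, then a probe without a gene name at 0.58 and 1 of the 232 spots of the glycolytic gene Gapdh at 0.57. No other gap of the 63 exceeded 0.5.

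The division of 9330198N18Rik followed the array clusters in part, and how closely depended on the linkage. Under average linkage it was low in all 4 arrays of the cluster with BXD8, BXD9, BXD11 and BXD28, in 5 of 9 arrays of the cluster with BXD18 and BXD42, in 1 of 10 of the cluster with BXD1 and BXD2, and in none of the 6. Under Ward linkage it was low in 5 of 6 arrays (BXD8, BXD9, BXD11, BXD13 and BXD28, not BXD14), in 5 of 6 of another cluster (BXD18, BXD21, BXD24, BXD29 and BXD32, not BXD22) and in no other cluster. Under complete linkage it was low in 6 of 7 and in 4 of 8 arrays of 2 clusters and in no other. Under average linkage Ptgdr2 as deposited was low in 6 of 6, in 9 of 10 of the cluster with BXD1 and BXD2, in 2 of 4, and in none of the 9. With the first principal component removed, Ptgdr2 was low in 6 of 6, 3 of 10, 1 of 9 and none of 4. BXD15 stood alone under every linkage and BXD38 under average and complete linkage, both on the high side for 4930402F06Rik and 9330198N18Rik and on the low side for Ptgdr2, and without these arrays the 3 divisions of the deposited values kept the same sides for the remaining strains.

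**Figure D2:**
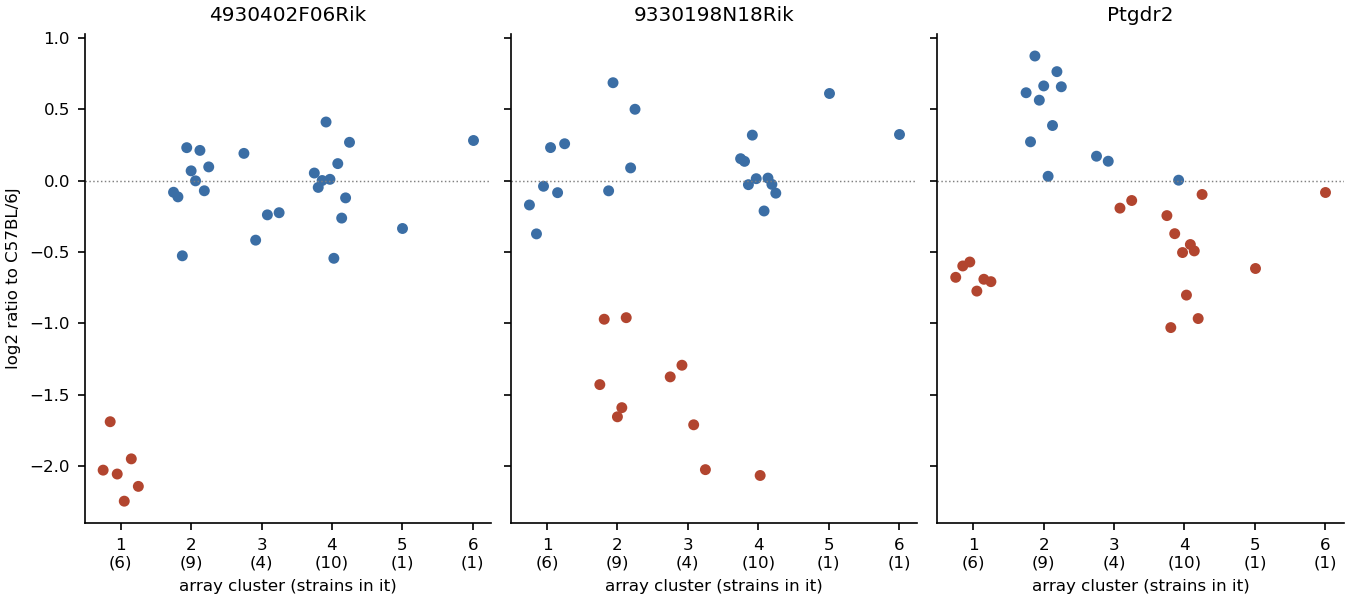
Log2 ratio to C57BL/6J (vertical axis) of each strain by the cluster of its array under average linkage (horizontal axis, number of strains in brackets), with low-side strains in red and high-side strains in blue as deposited; horizontal offsets only separate points. Cluster 1 holds all 6 low strains of 4930402F06Rik, from -2.25 to -1.69, while under this linkage the low strains of 9330198N18Rik lie in clusters 2, 3 and 4.

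The mean over strains and the difference between earlier and later strains were not themselves used to choose the genes, but they come from the same values. Both were tested with limma, 2-sided, over all 23040 probes with Benjamini-Hochberg adjustment, and these tests give no separate support for the levels. With 1 array per strain, these p-values rest on the spread between strains, and a strain's own effect and that of its array cannot be told apart. The mean log2 ratio of 4930402F06Rik was -0.42 ± 0.14 (SE, n = 31, adjusted p = 0.0106) with 19 strains below 0, and that of 9330198N18Rik was -0.41 ± 0.14 (SE, n = 31, adjusted p = 0.0122) with 19 below 0. Ptgdr2 had a mean of -0.16 ± 0.095 (SE, n = 31, adjusted p = 0.159), also with 19 strains below 0, and did not pass the threshold of 0.05. Lower calls made up 30.3% of all probes and higher calls 27.2%, so a call here is common on this array. For the first pair the mean lay between the medians of the low and high sides. The medians over all strains were -0.081 and -0.071.

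The mean of Ptgdr2 passed under alternatives, at -0.23 with arrays weighted by quality (adjusted p = 0.0369) and at -0.24 with the mean of each spot position removed (adjusted p = 0.00822). That of 9330198N18Rik was -0.25 (adjusted p = 0.0645) once the mean of each remainder of the probe number on division by 8, described further on, was taken out, and -0.24 (adjusted p = 0.0432) with spot position removed.

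BXD33 to BXD42 are set against BXD1 to BXD32 here because, as background, they come from a later breeding of the panel, a division that the labels do not give. All 7 later strains were on the high side of 9330198N18Rik, from -0.088 to 0.50 with a mean of 0.18 (SD 0.217, n = 7), while the 24 earlier strains ran from -2.07 to 0.69 with a mean of -0.59 (SD 0.86, n = 24). The difference of 0.76 ± 0.31 (SE, limma p = 0.0207) did not pass adjustment (adjusted p = 0.304), it was 0.40 (adjusted p = 0.593) with spot position removed, and the later strains lay within the range of the earlier ones. 4930402F06Rik was low in 3 of 7 later and 3 of 24 earlier strains, a difference of -0.52 ± 0.33 (SE, limma adjusted p = 0.536), or -0.89 with array weights (adjusted p = 0.192). Ptgdr2 differed by 0.032 ± 0.23 (SE, limma adjusted p = 0.969), and by -0.26 ± 0.18 with the first principal component as a covariate (SE, limma adjusted p = 0.624). In all, 2 probes passed this comparison, 0.00868%, both lower in the later strains, and 2904 had an unadjusted p under 0.05. The number rested on single arrays, being 33 without BXD33, 4 without BXD16 or BXD34, 1 without BXD38 and 0 without BXD36 or BXD39.

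Values also moved with the place of a spot on the array, for 9330198N18Rik and Ptgdr2 more than for 4930402F06Rik. The correlation with the mean of the other 47 spots at the same place of a repeat, described further on, was 0.70 for 9330198N18Rik, 0.74 for Ptgdr2 and 0.12 for 4930402F06Rik. Probe numbers, taken here as the order of the spots, showed a pattern: 91 of the 100 probes most like 9330198N18Rik had, as it did, a number divisible by 8, against 12.5% of all probes. Its median correlation was 0.28 with the 2879 other probes of that kind and -0.073 with the rest, and r reached 0.5 in 19.1% of the former and 0.605% of the latter. This is not particular to the gene, since 392 probes (1.70%) had as many alike probes of their own remainder, and the median was 50 for probes divisible by 8 and 13 for the others. 4930402F06Rik had 10 such probes among its 100 and Ptgdr2 had 12.

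**Figure D3:**
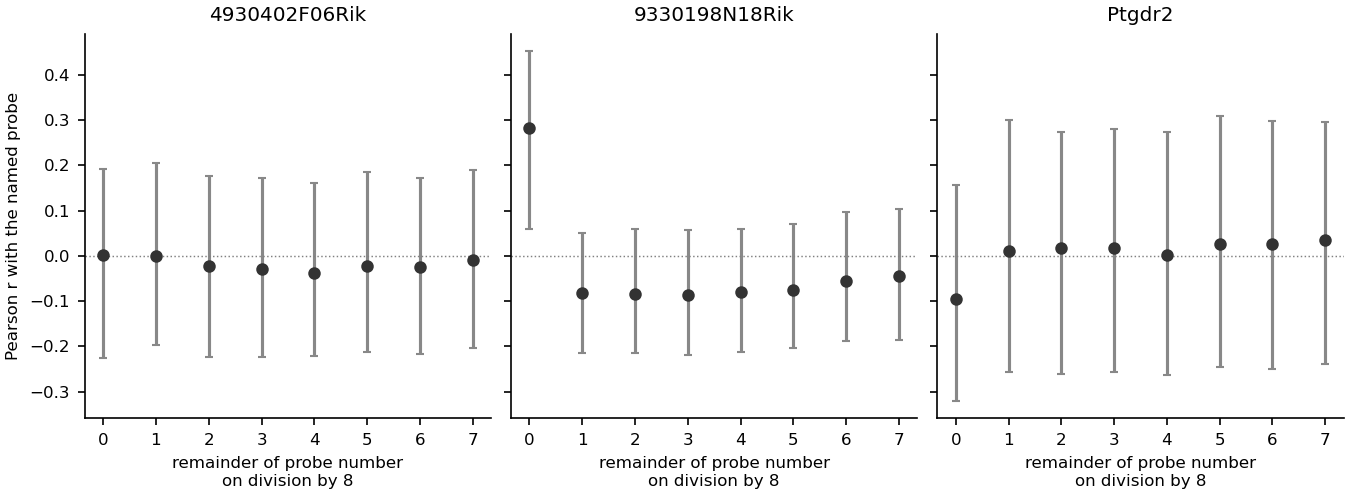
Pearson r over 31 strains with the probe of each gene (vertical axis), as the median (points) and the quartiles (bars) over all probes grouped by the remainder of the probe number on division by 8 (horizontal axis). For 9330198N18Rik the probes with remainder 0 have a median of 0.28 and the other groups lie below 0, while 4930402F06Rik and Ptgdr2 show no group as far from the rest.

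A further regularity had a period of 480 spots, which occurs 48 times. The 47 spots at the same place as 9330198N18Rik in the other repeats all correlated positively with it, from 0.13 to 0.84 with a median of 0.54, and 29 reached 0.5. Their mean correlation of 0.52 was exceeded for 1.55% of probes and compares with a median of 0.061 over all probes. For 4930402F06Rik the 47 spots had a median of 0.037 and 1 reached 0.5, and for Ptgdr2 the median was 0.31 and 12 reached it. Removing the mean of each place left the 6 low strains of 4930402F06Rik as they were, with a gap of 1.16 and a share of 90.0%, which then ranked 7 among all probes.

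For 9330198N18Rik the same removal closed the gap to 0.071. The share dropped to 61.2%, place 15116 of 23040, and the distance between the medians of the sides went from 1.53 to 0.74. The median over the probes divisible by 8, less that of all others, ran from -0.60 to -0.19 with a median of -0.37 in the low strains of 9330198N18Rik and from -0.31 to 0.40 with a median of -0.064 in the high ones. It correlated with the gene at r = 0.67 over the 31 strains. Removal of the mean of each remainder on division by 8 left 9330198N18Rik with 9 strains against 22, all 9 among its 10 low strains. The gap was then 0.35, the distance between the medians of the sides 1.23 and the share 79.2%, place 596. The part of this pattern in the levels was not tested beyond these removals. Removal of the place and then of the first principal component left Ptgdr2 with 15 strains against 16 and a gap of 0.091. Its share was then 79.4%, ranked 181 among all probes. With the component alone removed, the gap was 0.26 and the share 88.6%, ranked 2.

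**Figure D4:**
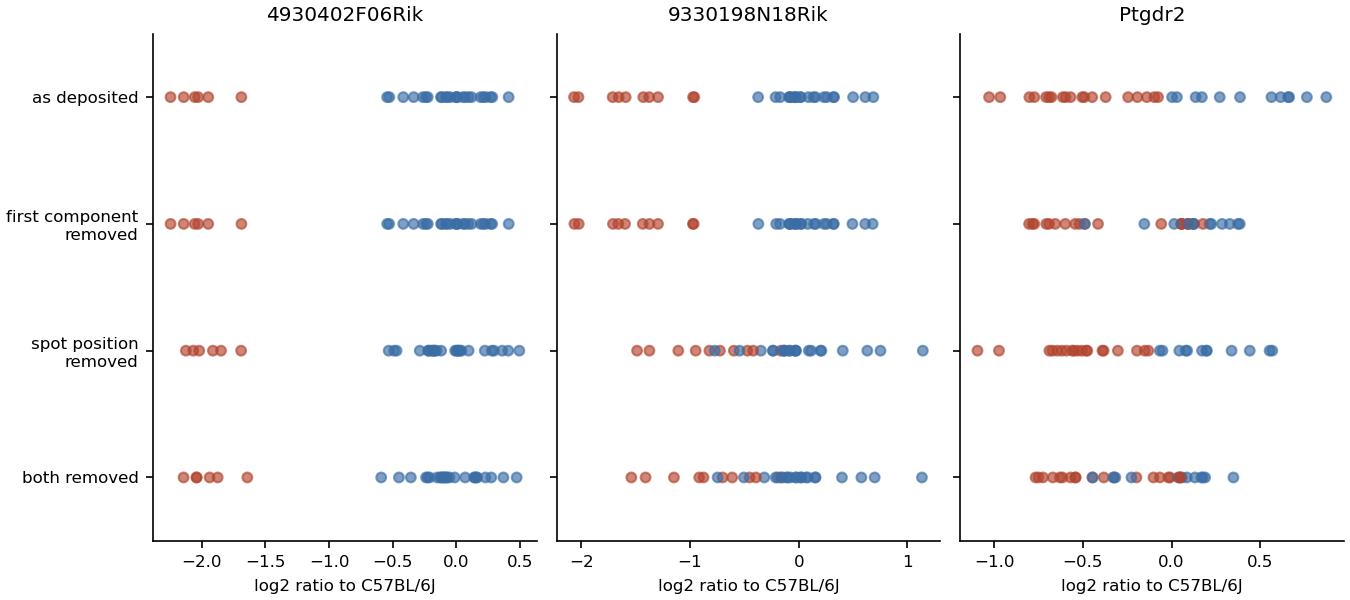
Log2 ratio to C57BL/6J (horizontal axis) of the 31 strains under 4 treatments of the values (vertical axis), coloured by the side as deposited, red for low and blue for high. The gap of 4930402F06Rik stays above 1 in all 4, that of 9330198N18Rik closes when spot position is removed, and that of Ptgdr2 opens when the first component alone is removed.

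The probes most like 4930402F06Rik over the 31 strains were Tmem183a, which encodes a membrane protein, at r = -0.90, Sgip1, an endocytic adaptor of nerve cells, at 0.85, the zinc finger gene Zfp9 at 0.83, Hnf4a, a nuclear receptor of kidney tubule and liver, at -0.83, and Slc2a5, a fructose transporter, at -0.82. An absolute r of at least 0.5 was reached by 7.68% of all probes. Within the 25 high strains the same genes correlated at -0.31, 0.27, 0.22, -0.47 and -0.43, so much of the likeness lay in the step between the levels.

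The 5 most like 9330198N18Rik all had probe numbers divisible by 8. They were Ccdc58 at 0.84, which lies at the same place of the repeat, Tonsl, a replication repair gene, at 0.82, Suv39h2, a histone methyltransferase, at 0.78, 2900076A07Rik at 0.77 and the chemokine gene Ccl9 at 0.77. Here 3.6% of probes reached 0.5, and within the 21 high strains these 5 correlated at between -0.078 and 0.35.

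Ptgdr2 was followed most closely by Bin1, which bends membranes, at 0.86, Gorasp2, a Golgi stacking protein, at 0.84, the odorant receptor gene Olfr68 at 0.82, 1700063H04Rik at 0.81 and Mtmr4, a lipid phosphatase, at 0.81. Among all probes 14.4% reached 0.5, or 3.65% with the first principal component removed. Bin1 and Gorasp2 remained at 0.72 and 0.71 with the component removed, and Gorasp2 stood at 0.80 within the 19 low strains alone. With the component removed, the closest were Ube2ql1 at -0.76, Sdhaf3 at -0.74, Prps1l1 and Cul1 at -0.73 and 0.73, and Dctn1 at -0.73, none of them among the first 5. As deposited they stood at -0.49, -0.25, -0.36, 0.23 and -0.15 in that order. With spot position removed instead, they stood at -0.65, -0.24, -0.18, 0.44 and -0.043.

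Neighbouring genes are inherited together in such strains, so the 5 measured genes on either side of each gene were compared with it. Beside 4930402F06Rik, 1 of 10 reached an absolute r of 0.5, a share close to the 7.68% of all probes. This was the next gene on one side, Dab2ip, a scaffold that acts on Ras, at r = -0.67 (Spearman -0.42). The 6 low strains of 4930402F06Rik had Dab2ip at 0.36 to 1.33 with a median of 0.95, and the other 25 had it at -0.10 to 0.77 with a median of 0.24, so Dab2ip tended the opposite way and the strains overlapped. Only 0.981% of all probes had a larger absolute r with 4930402F06Rik, the value was -0.74 with the first component removed and -0.70 with spot position removed, and it was 0.0084 within the 25 high strains. By rank correlation 0 of the 10 neighbours reached 0.5, beside 5.53% of all probes, and with spot position removed 2 of 10 did, Dab2ip and 9030204H09Rik at -0.58, beside 9.11%.

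The other 9 neighbours of 4930402F06Rik ran from -0.19 to 0.23. They were Cntrl, a centrosome gene, Rab14, a small GTPase of endosomes, Gsn, the actin-severing gelsolin, Stom and 4930568D16Rik on one side, and Ttll11, a tubulin glutamylase, 9030204H09Rik, Ndufa8 of respiratory complex I and Morn5 on the other. The median absolute r of all 10 was 0.13, against 0.20 over all probes. Against C57BL/6J, 4 of the 10 were higher in the panel mean and 3 lower, beside 27.2% and 30.3% of all probes, including 9030204H09Rik at -0.53 ± 0.15 and Dab2ip at 0.38 ± 0.069 (SE, limma adjusted p = 0.00262 and 1.77e-05). With 25 genes on each side, 3 of 54 probes (5.56%) reached 0.5, again beside 7.68%, the others being 9430024E24Rik at -0.59 and a probe of Mvb12b at -0.56. Another probe of Mvb12b stood at -0.0060. Hc, which encodes complement C5 and is inactive in DBA/2J, lies 6 measured genes away and correlated at 0.36, or 0.14 with spot position removed.

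Beside 9330198N18Rik none of 10 reached 0.5, and 3.6% of all probes did. Values ran from -0.26 for Asb6, a ubiquitin ligase adaptor, to 0.29 for 1700001O22Rik, with Dolpp1, the carnitine acetyltransferase gene Crat, Ptpa, Ier5l, Cstad, the methyltransferase gene Ntmt1, the homeobox gene Prrx2 and Ptges in between. Their median absolute r was 0.20, against 0.16 over all probes. In the panel mean 6 of the 10 were higher than C57BL/6J, beside 27.2% of all probes, and the others did not pass, with Crat highest at 0.74 ± 0.083 (SE, limma adjusted p = 4.79e-09). In the wider window 1 of 55 probes (1.82%) reached 0.5, a probe of the tyrosine kinase gene Abl1 at 0.53. That probe stood at 0.19 with spot position removed, and the other probes of Abl1 stood at -0.25 and 0.25 as deposited. 9330198N18Rik and 4930402F06Rik lie on the same chromosome with 56 measured genes between them.

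Ptgdr2 on chromosome 19 had 2 of 10 neighbours (20%) past 0.5, beside 14.4% of all probes, both of the Ms4a family of membrane proteins. Ms4a18 correlated at 0.75 (Spearman 0.70) and Ms4a10 at 0.72 (Spearman 0.76), values exceeded by 0.369% and 0.803% of all probes. Ms4a18 lay between -2.04 and 0.47 with a median of -1.15 in the 19 low strains of Ptgdr2 and between -0.30 and 0.64 with a median of 0.26 in the 12 high ones. Its own best division had 16 low strains, all of them among the 19 of the deposited values of Ptgdr2, which showed no break. Ms4a10 had medians of -0.44 and 0.071 on those sides, and the ranges of both genes overlapped.

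Both were lower than C57BL/6J in the panel mean, Ms4a18 at -0.58 ± 0.14 and Ms4a10 at -0.25 ± 0.066 (SE, limma adjusted p = 0.000672 and 0.00168). They correlated with each other at 0.68. Ms4a18 and Ms4a10 also correlated with the first principal component, at 0.73 and 0.56, as Ptgdr2 did at 0.69. With that component removed their correlations with Ptgdr2 were 0.50 and 0.55, values exceeded by 3.73% and 1.71% of all probes. With spot position removed their correlations with Ptgdr2 were 0.70 and 0.65. Genes of this family are related in sequence, and the sequences of their probes were not used here.

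The other 8 neighbours of Ptgdr2 ran from -0.37 for Zp1, a component of the egg coat, to 0.31 for the transporter gene Slc15a3. Ccdc86, which overlaps Ptgdr2 in the annotation, correlated at -0.22, and Tmem132a went from -0.081 to -0.55 with the first component removed. Over 25 genes on each side 13 of 52 probes (25%) reached 0.5, or 3 of 52 (5.77%) with the component removed, beside the 14.4% and 3.65% of all probes. This window held 16 Ms4a genes with 18 probes, of which 8 reached 0.5, 7 of them positively, and 1 did so with the component removed. Ms4a2, the beta chain of the IgE receptor, was the most negative at -0.54.

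**Figure D5:**
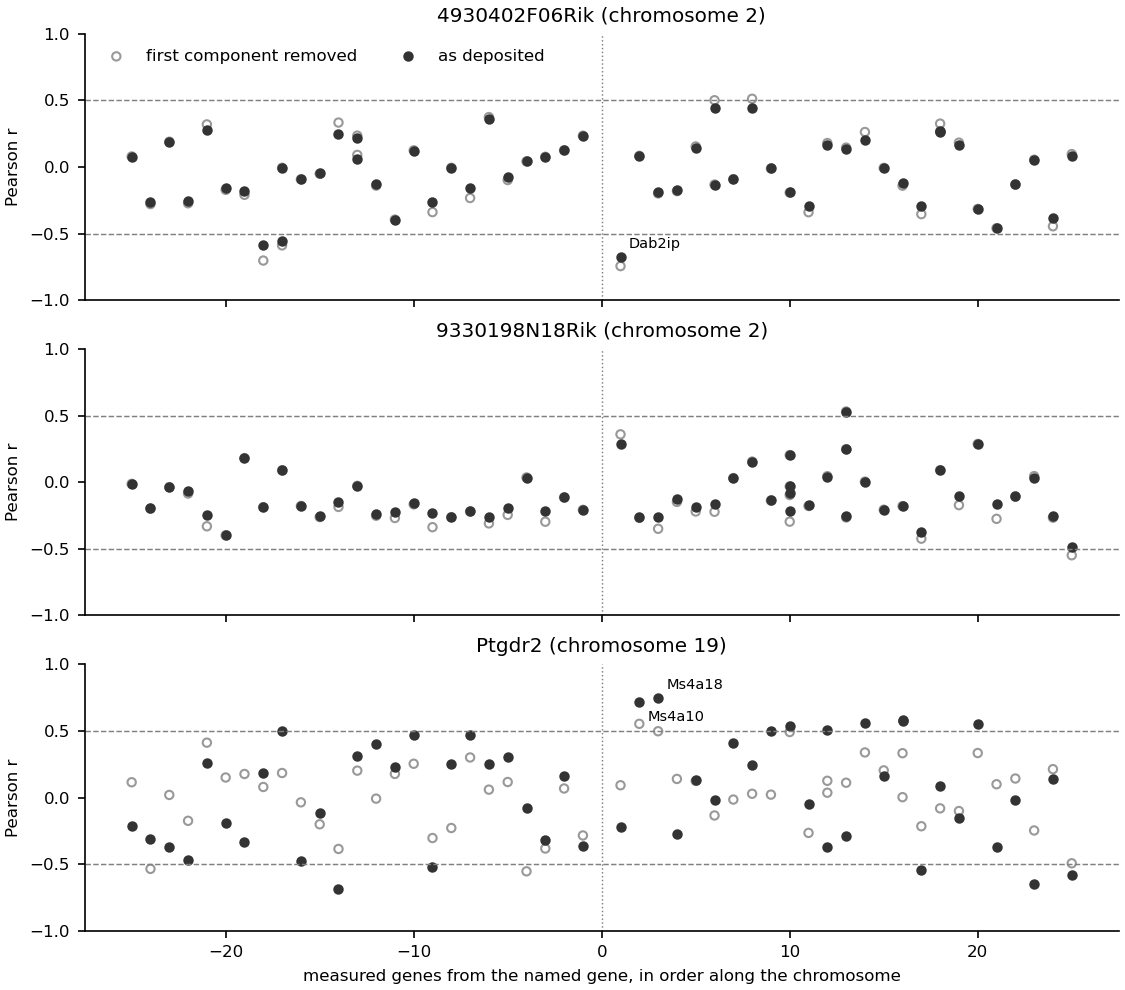
Pearson r over 31 strains with each gene (vertical axis) for the probes of up to 25 measured genes on each side in chromosome order (horizontal axis), as deposited (filled) and with the first principal component removed (open); dashed lines mark 0.5 and -0.5. Dab2ip beside 4930402F06Rik at -0.67 and Ms4a10 and Ms4a18 beside Ptgdr2 at 0.72 and 0.75 are the neighbours within 5 genes past the lines as deposited; with the component removed Dab2ip, Ms4a10 and Tmem132a are.

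Of 24 genes that make, carry, sense or break down prostaglandins, 23 were measured. In the panel mean 13 were higher and 5 lower than C57BL/6J, beside 27.2% and 30.3% of all probes, with a median of 0.14 against -0.018 over all probes. Between earlier and later strains limma called 0 of them, with 1 at an unadjusted p under 0.05, beside 2904 of 23040 probes. Both enzymes that form prostaglandin D2 were higher, Ptgds at 0.37 ± 0.12 and Hpgds at 0.23 ± 0.046 (SE, limma adjusted p = 0.00709 and 8.12e-05). Ptgdr, the other receptor for that ligand, was lower at -0.38 ± 0.11 (SE, limma adjusted p = 0.00362). Among the remaining receptors Ptgir for prostacyclin was lowest at -0.53, Ptger1 and Ptger2 for prostaglandin E2 stood at -0.28 and -0.37, and Ptgfr, Tbxa2r and Ptger4 were higher at 0.22, 0.20 and 0.15.

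Of the synthases and upstream enzymes, Ptgis at 0.30, Ptges at 0.17, Ptges2 at 0.13, Ptges3 at 0.31, Pla2g4a at 0.14 and the prostaglandin F synthase gene Fam213b at 0.83 were higher and Ptgs2, the inducible cyclooxygenase gene, was lower at -0.15. The degrading enzymes Hpgd at 0.42 and Ptgr1 at 0.30 were higher as well. With spot position removed 12 were higher and 7 lower, and Pla2g4a was then called lower. Ptges2 lay near the threshold and did not pass once the common median of 0.0127 was subtracted from every array, nor did Pla2g4a with the remainders on division by 8 taken out.

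Over strains, 10 of the 23 (43.5%) reached an absolute r of 0.5 with Ptgdr2, 8 of them positively, against 14.4% of all probes. Ptgds at 0.80 and Ptgdr at 0.72 were among the closest, with the transporter gene Slco2a1 at 0.74, the carbonyl reductase gene Cbr1 at 0.69, Ptgfr at 0.67 and Hpgds at 0.59. Ptges at 0.52 and Ptgir at 0.51 followed, while Ptgr2 at -0.64 and Ptges3 at -0.58 ran the opposite way. With the first principal component removed 3 of the 23 (13%) remained past 0.5, Ptgfr at 0.58, Ptgds at 0.57 and Ptgdr at 0.54, against 3.65% of all probes. With spot position removed 8 did, beside 11% of all probes.

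Markers of the cells known for Ptgdr2 were set beside it. Of 15 such genes 14 were measured, of which 4 were higher and 3 lower than C57BL/6J, counts near the 27.2% and 30.3% of all probes, with a median of 0.033. By value, the eosinophil genes Il5ra at 0.72, Epx at 0.25 and Siglecf at 0.18 and the cytokine receptor gene Il17rb at 0.18 were higher. Ccr3 at -0.081 and Prg2 at 0.12, also eosinophil genes, did not pass (limma adjusted p = 0.123 and 0.171). The basophil gene Mcpt8 at -0.27, Il5 at -0.17 and the IgE receptor gene Fcer1a at -0.13 were lower. Of these Siglecf, Il17rb and Fcer1a each missed the threshold when spot position or the remainders on division by 8 were taken out. The summed share of such cells cannot be read from ratios to a reference, which give no level.

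Of the 14, 4 (28.6%) reached an absolute r of 0.5 with Ptgdr2, Ccr3 at 0.64, Il4 at 0.64, Il13 at -0.66 and Prg2 at 0.52, beside 14.4% of all probes. With spot position removed 2 did, beside 11%, and with the first principal component removed none did, beside 3.65%. Il4 and Il13, cytokine genes of the same cells, thus stood on opposite sides of 0. Their part in the values of Ptgdr2 was not tested.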

How the data were processed

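Log2 ratios of 31 arrays were taken as the authors deposited them, and the log base and direction are the likely reading and not stated. Per the submitters' processing notes R 2.0.0 and limma were used, with no steps given. The sorted values were identical on all arrays, so the arrays had been made alike by quantile normalization, and the number of arrays limits the precision. No strain had a replicate array, and signal intensities were not used here. Probe names came from the platform table, and 16196 of 16874 probes with 1 gene name were matched by gene number to RefSeq (GRCm38.p6), which gave gene order only.

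Means and group differences were fitted over all probes with limma 3.58.1 (lmFit, eBayes) in R 4.3.3, with the Benjamini-Hochberg threshold at 0.05. Divisions, correlations and clusters were computed with Python 3.11.15, numpy 2.4.6, scipy 1.17.1 and pandas 2.3.3, and fit and division were tested on simulated data. The genes, lists and tests were chosen with earlier results of these data known. Named were the 3 genes, 5 measured genes on each side, the 5 probes most like each gene, and list members past a threshold with up to 6 others by list order. Genes named outside this rule (strains' most separated probes, wider windows, list members by r, Hc) were chosen after their values were seen. Alternatives fixed at the start were median centring, leaving out the 10% of probes of smallest spread, robust eBayes, array weights, the first principal component as a covariate or removed, spot position removed, smaller sides, rank correlation, a wider window, and leaving out BXD15 with BXD38 or each strain. Removal of the remainders on division by 8, and of spot position with the first component, was added after seeing the data.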

Additional observations from a re-analysis of the deposited data

How the results depend on the processing

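The 6 low strains of 4930402F06Rik were the same under every removal tried, with a distance between side medians of 1.91 to 2.04. These removals could hardly move them. The gene correlated at 0.0012 with the first component and at 0.12 with the mean of its spot position. The next 2 components, with which it correlated at 0.64 and -0.63, were not removed. Whether the division outlasts removal of the likeness among these 6 arrays was not tested. For 9330198N18Rik the distance between side medians was 0.74 with spot position removed and 0.75 with the first component removed as well. With the remainders on division by 8 removed it was 1.23. For Ptgdr2 it was 0.75 with the first component removed, 0.64 with spot position removed and 0.59 with both. The mean of 9330198N18Rik was -0.25 (adjusted p = 0.0645) with the remainders on division by 8 removed, and that of Ptgdr2 passed at -0.23 with array weights and -0.24 with spot position removed; the cause was not tested. Leaving out 1 strain at a time gave means of -0.45 to -0.36 for 4930402F06Rik, -0.45 to -0.36 for 9330198N18Rik and -0.19 to -0.13 for Ptgdr2, and changed no call. Group differences then ran from -0.70 to -0.28, 0.70 to 0.82 and -0.12 to 0.14, none of them called.

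The number of probes called between earlier and later strains was 116 with array weights, 0 with the first component as a covariate (2527 at an unadjusted p under 0.05), 0 with spot position removed (2250), 1 without BXD15 and BXD38, and from 0 (without BXD36 or BXD39) to 33 (without BXD33) when 1 strain was left out, with 4 without BXD16 or BXD34 and 1 without BXD38. Neighbours past an absolute r of 0.5 numbered 0 by rank correlation, 2 with spot position removed and 3 in the wider window for 4930402F06Rik, and 1 and 13 in the wider window for 9330198N18Rik and Ptgdr2. No paired analysis was possible because each strain had 1 array and the groups share no strain number. A single probe per gene and 1 array per strain limit every value.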

Other observations

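The labels name both kidney and whole brain, and the ratios, which give no levels, do not settle it. Of 12 kidney markers 10 were measured, with a median SD over strains of 0.57 and a median correlation between pairs of genes of 0.28. Of 12 brain markers 11 were measured, with a median SD of 0.32 and a median pair correlation of -0.023. The median SD of all probes was 0.37.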
